A study of Rattus norvegicus with 862 samples.

Results

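The genes described here are 6 that mark macrophages in the rat heart or belong to their response: Mrc1, Lyve1, Cd163, Cd68, Gpnmb and Ccl2. They were listed by name, and each was read from the probe set with the highest mean level among those that the platform's annotation gives a single gene symbol. All 6 had such a probe set, so they are 6 of the 14217 genes measured. The data came from male Sprague-Dawley rats aged 6 to 8 weeks, each given 1 of 88 compounds or the vehicle alone, whose heart RNA was hybridized to a whole-genome rat array. There were 862 arrays of 840 rats, 611 of them treated and 229 given vehicle, since 22 rats had a repeat array. Treated rats were killed after 0.25, 1, 3, 5 or 7 d of exposure, with 151, 219 and 235 treated rats and 52, 72 and 85 usable control rats at 1, 3 and 5 d.

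A compound at 1 dose, in 1 vehicle and by 1 route is called a profile below. Each profile was set against vehicle control hearts of the same vehicle, route, duration and RNA extraction campaign, of which there were 5. This left 95 of 97 profiles, with 3 to 9 treated and 3 to 28 control rats each. Most rats were dosed by oral gavage in carboxymethyl cellulose (CMC; 183 treated and 39 control rats), corn oil (130 and 41) or water (141 and 64). Others received the compound intravenously in saline (57 treated and 22 control rats), from a subcutaneous mini-pump holding saline (46 and 15) or by subcutaneous injection in corn oil (18 and 9). Levels are log2 expression values, in which 1 unit is a doubling, and a change is the mean of treated hearts minus the mean of control hearts on that scale, with durations fitted as strata. A gene was called changed in a profile when its limma p-value, adjusted over all genes by the Benjamini-Hochberg method, was at most 0.01 and its fold change at least 1.5. Levels of different genes are not compared, since probe sets differ in affinity. Where groups are said not to overlap, the share of all genes without overlap was not counted. In 44 of the 95 profiles no control rat came from the same in-life study as any treated rat, so study and compound cannot be told apart there. This held for 9 of the 14 profiles described in full below. They were dexamethasone, fluocinolone acetonide, fludrocortisone acetate, sulindac, tacrolimus, cyclosporin A in corn oil, chlorobenzene, gabapentin and acrolein. Of the 862 arrays, 35 stood apart from the rest by a low correlation with the mean array or by high levels of liver or fat genes, and 64 of the 69 calls of members were made again without them. The heart muscle genes were high in every group compared, with a mean log2 level of at least 12.00.

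Macrophages live in the heart from before birth, between the muscle cells and along the vessels, where they clear debris and dying cells. Those that settle there carry scavenger receptors such as the mannose receptor Mrc1, the hyaluronan receptor Lyve1 and the haptoglobin-hemoglobin receptor Cd163. Lyve1 is also the usual marker of lymphatic endothelium. Cd68 is a glycoprotein of the lysosomes of phagocytes, and Gpnmb is a membrane glycoprotein of lipid-loaded and injury-associated macrophages. Ccl2 is a secreted chemokine that draws monocytes through the receptor Ccr2, and it is made by stromal and endothelial cells as well as by macrophages.

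Increases far outnumbered decreases. Of 570 tests of a member in a profile, 67 were called higher in treated hearts, or 11.8%, against 0.357% of the tests of all genes. A further 2 were called lower, a share close to the 0.344% called lower among the tests of all genes. Gpnmb was called higher in 19 profiles, Lyve1 in 17, Mrc1 and Cd163 in 13 each, Cd68 in 3 and Ccl2 in 2. Both lower calls were of Ccl2. Gpnmb was called higher in more profiles than 99.9% of genes, Lyve1 than 99.88%, and Mrc1 and Cd163 than 99.69%. The members were chosen with earlier results of these data known, so these shares describe the list and do not test it. At least 1 member was called in 29 profiles, 3 or more in 12, and none in 66. In bulk tissue a larger number of macrophages and more RNA per macrophage cannot be told apart.

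**Figure D1:**
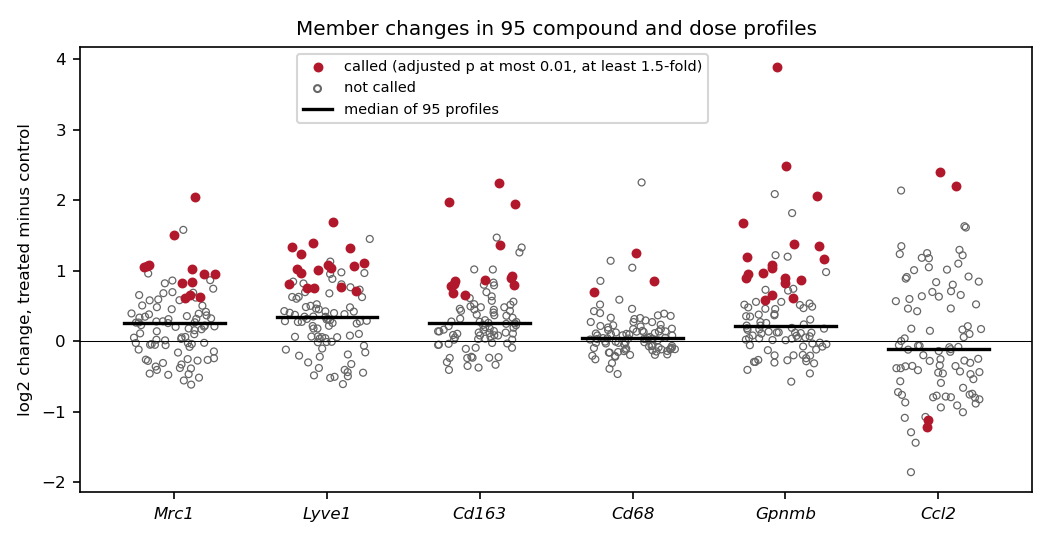
Log2 change of each member, treated minus vehicle control hearts, in 95 profiles. Each point is 1 profile, red points are called changes (adjusted p at most 0.01 and fold change at least 1.5), and the black line is the median, which was 0.35 for Lyve1, 0.26 for Mrc1 and Cd163, 0.22 for Gpnmb, 0.05 for Cd68 and -0.12 for Ccl2.

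Over all 95 profiles, called or not, the scavenger receptors and Gpnmb were mostly above their control levels. The median change over the 95 profiles was 0.35 for Lyve1, 0.26 for Cd163, 0.26 for Mrc1 and 0.22 for Gpnmb, while 5% of all genes had a median below -0.11 and 5% above 0.07. Cd68, at a median of 0.05, was within that span, and Ccl2, at -0.12, was just below it. Changes were above 0 in 76 profiles for Cd163, 74 for Lyve1, 72 for Gpnmb, 65 for Mrc1, 57 for Cd68 and 42 for Ccl2. Because profiles share control rats, these medians are a description. Over the 51 profiles that could be fitted with controls of the same in-life study alone, the medians were 0.48 for Lyve1, 0.37 for Gpnmb, 0.27 for Cd163 and 0.26 for Mrc1, but only 6 of the 25 calls made in those profiles were made again with the fewer controls.

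Mrc1, Lyve1 and Cd163 were called together in 9 profiles, and at least 1 of the 3 in 22. Their promoter windows are shown because these genes moved together and the largest changes in Lyve1 and Cd163 followed a glucocorticoid. Each window runs from 250 bases before to 50 bases after the annotated start, on the gene's strand, from RefSeq on build GRCr8. The windows are chr17:82157475-82157774 (plus strand) for Mrc1, chr1:174410928-174411227 (minus strand) for Lyve1 and chr4:158770524-158770823 (plus strand) for Cd163. Capitals mark matches to AGAACA, the core hexamer bound by the glucocorticoid receptor, or to GAGGAA, the core bound by the myeloid factor PU.1, on either strand.
Mrc1: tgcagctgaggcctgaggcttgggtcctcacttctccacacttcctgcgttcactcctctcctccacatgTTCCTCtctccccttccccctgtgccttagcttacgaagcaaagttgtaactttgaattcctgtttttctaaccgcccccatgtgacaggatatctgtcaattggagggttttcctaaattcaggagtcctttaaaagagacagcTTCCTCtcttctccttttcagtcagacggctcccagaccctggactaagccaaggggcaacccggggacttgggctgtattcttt
Lyve1: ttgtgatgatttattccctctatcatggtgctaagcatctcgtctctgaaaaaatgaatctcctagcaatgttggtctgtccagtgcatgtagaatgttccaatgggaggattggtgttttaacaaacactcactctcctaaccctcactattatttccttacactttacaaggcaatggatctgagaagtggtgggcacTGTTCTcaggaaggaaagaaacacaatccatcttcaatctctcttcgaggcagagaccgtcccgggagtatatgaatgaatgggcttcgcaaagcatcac
Cd163: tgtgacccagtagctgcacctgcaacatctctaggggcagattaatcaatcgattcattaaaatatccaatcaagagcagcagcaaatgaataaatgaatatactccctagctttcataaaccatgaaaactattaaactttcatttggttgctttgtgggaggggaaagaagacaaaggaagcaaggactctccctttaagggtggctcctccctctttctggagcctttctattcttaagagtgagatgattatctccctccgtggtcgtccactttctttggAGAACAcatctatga
AGAACA lay in the Lyve1 window at position -50, on the reverse strand, and in the Cd163 window at position 36, counted from the start. Mrc1 held GAGGAA at -180 and -35, both on the reverse strand. AGAACA is found in 20.7% and GAGGAA in 27.6% of the 33469 promoters of the same length, so these matches are a description of the letters and not evidence of binding.

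The largest change in Cd163 followed dexamethasone, a synthetic glucocorticoid, given at 1 mg/kg in corn oil for 3 or 5 d. Cd163 ranged over 7.93, 8.05 and 8.41 (lowest, median and highest of 6 rats) in dexamethasone hearts, against 5.22, 5.87 and 6.65 in 19 control hearts. Every treated heart was above every control heart, and the change was 2.24 ± 0.17 (SE; limma adjusted p = 6.53e-11). Lyve1 was at 10.02, 10.44 and 10.50 in dexamethasone hearts and 7.91, 8.73 and 9.52 in control hearts, again without overlap. Its change was 1.69 ± 0.16 (adjusted p = 6.87e-09). Mrc1 overlapped, at 8.86, 9.09 and 9.64 in treated hearts and 7.40, 8.01 and 9.01 in control hearts, with a change of 1.08 ± 0.20 (adjusted p = 1.37e-04). Gpnmb rose by 0.82 ± 0.17 (adjusted p = 5.06e-04), so that 4 of the 6 members were called, against 2.6% of all genes called higher. Cd68 was not called (0.27, adjusted p = 0.0218).

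Fluocinolone acetonide, another glucocorticoid, was given at 2.5 mg/kg subcutaneously to 9 rats over 1, 3 or 5 d. Cd163 was at 6.91, 7.44 and 8.50 in treated hearts and 4.92, 5.46 and 6.53 in 9 control hearts, without overlap. The change was 1.98 ± 0.18 (adjusted p = 3.7e-07). Lyve1 rose by 1.24 ± 0.18 (adjusted p = 6.92e-05), Mrc1 by 0.95 ± 0.14 (adjusted p = 8.45e-05) and Gpnmb by 0.90 (adjusted p = 5.37e-04), with 2.45% of all genes called higher. Hydrocortisone at 56 mg/kg was set against the same 9 control rats. Its Cd163 levels were 6.30, 6.98 and 7.46 in treated hearts and 4.92, 5.46 and 6.53 in control hearts, and 8 of 9 treated hearts lay above all control hearts. Cd163 (1.37 ± 0.20, adjusted p = 1.3e-04) and Gpnmb (0.65, adjusted p = 0.00469) were called after hydrocortisone, whereas Lyve1 (0.82, adjusted p = 0.0123) and Mrc1 (0.41, adjusted p = 0.0885) were not, with 0.64% of all genes called higher.

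Fludrocortisone acetate, a mineralocorticoid with glucocorticoid activity, gave at 125 mg/kg in CMC a called rise in Lyve1 (0.77, adjusted p = 0.00209), Cd163 (0.79, adjusted p = 0.00438) and Ccl2, with 0.823% of all genes called higher. Ccl2 is described with the chemokine below. At 5 d alone, Cd163 (1.72), Lyve1 (1.45), Gpnmb (1.02) and Mrc1 (0.92) were all called, with 1.46% of all genes called higher at that duration. Within the same hybridization batches (2 treated and 2 control rats) the Lyve1 change was 0.39. Cortisone, prednisolone and prednisone, each with 3 treated hearts at 1 d and 9 control hearts, had no called member. Their Cd163 changes were 0.32, -0.38 and -0.03. Doses, routes and durations differed, so the glucocorticoids were not tested against each other.

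**Figure D2:**
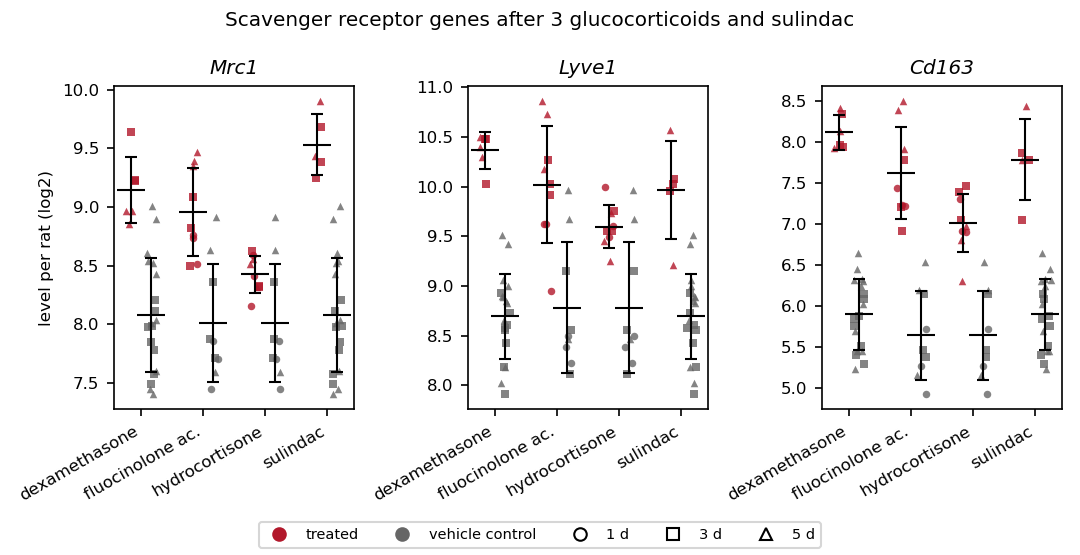
Log2 level of Mrc1, Lyve1 and Cd163 in each rat given dexamethasone, fluocinolone acetonide, hydrocortisone or sulindac (red, left) and in the matched vehicle control rats (grey, right). Marker shape gives the duration of 1, 3 or 5 d, and bars are the mean ± SD; Cd163 in dexamethasone, fluocinolone acetonide and sulindac hearts lay above every matched control heart.

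Other cell markers moved in the same glucocorticoid hearts. The MHC class II genes, which antigen-presenting cells carry, were called lower for 4 of 5 after dexamethasone, with a median change of -2.34. Their mean log2 level was 6.76 to 7.79 in dexamethasone hearts and 8.71 to 9.88 in control hearts. Fibroblast genes were called lower for 5 of 6, with a median of -2.59 and a mean level of 9.09 to 10.00 in dexamethasone hearts against 11.48 to 12.03 in control hearts. Neutrophil genes were called higher for 3 of 5, with a mean level of 6.92 to 7.92 in dexamethasone hearts and 5.18 to 6.29 in control hearts. Fluocinolone acetonide gave the same counts, 4 of 5, 5 of 6 and 3 of 5, with medians of -2.26, -2.66 and 1.55. The part of these shifts in the changes of the 6 members was not tested. Among 27 other macrophage genes, 7 were called higher and 3 lower after dexamethasone, with a median of 0.00.

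Sulindac, a cyclooxygenase inhibitor, at 132 mg/kg in corn oil was the profile with the most members called at once. All members but Ccl2 were called higher, against 3.5% of all genes. Mrc1 was at 9.25, 9.38 and 9.68 in the 3 hearts at 3 d and 9.43 and 9.90 in the pair at 5 d, against 7.40, 8.01 and 9.01 (lowest, median and highest) in 19 control hearts. The change was 1.51 ± 0.20 (adjusted p = 5.92e-06), without overlap. Cd163, at 7.05, 7.78 and 7.86 at 3 d and 7.78 and 8.44 at 5 d, was above all control hearts (5.22, 5.87 and 6.65), with a change of 1.95 ± 0.20 (adjusted p = 7.76e-08). Lyve1 rose by 1.32 (adjusted p = 3.63e-05). These 19 control rats were also those of dexamethasone and of cyclosporin A in corn oil, so the 3 profiles are not independent of each other.

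Cd68 after sulindac was at 7.63, 7.82 and 8.91 at 3 d and 7.96 and 8.06 at 5 d, and at 6.50, 6.84 and 7.03 in control hearts. The groups did not overlap, and the change was 1.25 ± 0.12 (adjusted p = 5.4e-08). Gpnmb rose by 1.19 (adjusted p = 2.42e-04), though by 0.64 within the same hybridization batches (2 treated and 5 control rats). Among 27 other macrophage genes 20 were called higher and none lower, with a median of 0.91 and a mean level of 8.10 to 8.68 in sulindac hearts against 7.16 to 7.52 in control hearts. The pan-macrophage marker Adgre1 rose by 2.01, the endotoxin co-receptor Cd14 by 2.55 and the heme-degrading enzyme Hmox1 by 3.41. Of 5 neutrophil genes 4 were called higher, with S100a8 at 5.51 and S100a9 at 5.14, and their mean level was 7.76 to 9.52 in sulindac hearts and 5.18 to 6.29 in control hearts. MHC class II genes were called lower for 4 of 5, with a mean level of 8.31 to 9.45 in sulindac hearts and 8.71 to 9.88 in control hearts. The part of these other markers in the result was not tested. Indomethacin at 9.6 mg/kg, set against 19 other control hearts given water, had changes of 0.96 in Mrc1, 0.98 in Lyve1, 1.02 in Cd163, 0.85 in Cd68 and 1.22 in Gpnmb in 5 hearts, none of them called. Aspirin, celecoxib, rofecoxib and valdecoxib had no called member.

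Tacrolimus, a calcineurin inhibitor, at 134 mg/kg in CMC left Gpnmb and Cd68 uncalled while all 3 scavenger receptors rose, with 1.67% of all genes called higher. Mrc1 was at 8.65, 8.92 and 9.28 in 6 tacrolimus hearts and 7.46, 7.88 and 8.65 in 18 control hearts, without overlap. Its change was 1.02 ± 0.14 (adjusted p = 9.18e-06). Cd163, at 6.18, 6.52 and 6.66 in tacrolimus hearts against 4.95, 5.56 and 6.16 in control hearts, also did not overlap (0.86, adjusted p = 1.21e-04), and Lyve1 rose by 1.09 (adjusted p = 3.66e-05). Rapamycin, which binds the same immunophilin but inhibits mTOR, had no called member, and its Mrc1 change was -0.46.

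Lyve1 was called after several cytostatic drugs. Epirubicin, an anthracycline, at 2.7 mg/kg intravenously gave Lyve1 levels of 9.26, 10.04 and 10.18 in 9 treated hearts and 7.58, 8.70 and 9.11 in 22 control hearts, without overlap. The change was 1.33 ± 0.15 (adjusted p = 1.29e-07). Gpnmb (0.95, adjusted p = 1.21e-06), Cd163 (0.85, adjusted p = 3.41e-06) and Mrc1 (0.65, adjusted p = 6.13e-05) were called too, with 1.53% of all genes called higher. With the controls of the same in-life study alone (6 treated and 2 control rats) the changes were 1.07 in Lyve1, 0.85 in Gpnmb, 0.56 in Cd163 and 0.36 in Mrc1, and none was called. Against the same 22 control rats, Lyve1 was also called after doxorubicin (1.01), the anthracenedione mitoxantrone (1.11) and daunorubicin (0.76), and no member was called after idarubicin. Of the 14217 genes, 107 were called higher after doxorubicin, 77 after mitoxantrone and 11 after daunorubicin.

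Vinblastine, which blocks microtubule assembly, at 0.3 mg/kg gave Lyve1 levels of 9.57, 9.77 and 10.51 in 6 treated hearts, against 7.58, 8.60 and 9.11 in 16 control hearts, and a change of 1.39 ± 0.20 (adjusted p = 2.8e-04). Gpnmb was at 7.68, 8.89 and 9.70 in vinblastine hearts and 6.51, 7.07 and 7.57 in control hearts, with a change of 1.68 ± 0.17 (adjusted p = 2.19e-06). Neither gene overlapped between the groups. Mrc1 (0.83, adjusted p = 0.00597) and Cd163 (0.65, adjusted p = 0.0084) were called as well, with 0.45% of all genes called higher. With 3 treated rats and the 1 control rat of their own study the changes were 1.22 in Gpnmb, 0.75 in Lyve1, 0.08 in Mrc1 and -0.10 in Cd163. Vinorelbine had no called member. Red blood cell genes were called lower for 2 of 3 after vinblastine (median -4.62, mean level 5.62 to 7.47 in vinblastine hearts against 9.42 to 11.09 in control hearts) and for 3 of 3 after epirubicin (median -3.29). MHC class II genes were called lower for 4 of 5 after vinblastine and 2 of 5 after epirubicin, and the part of either list in the changes was not tested.

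Cyclophosphamide, an alkylating agent, at 25 mg/kg in water was followed by called rises in Lyve1 (1.07, adjusted p = 0.00562), Gpnmb (1.04, adjusted p = 2.91e-04), Mrc1 (0.84, adjusted p = 0.00562) and Ccl2, with 1.62% of all genes called higher. With 3 treated rats and the 1 control rat of their own study the Lyve1 change was 0.95 and the Mrc1 change 0.32. Chlorobenzene, a solvent, at 500 mg/kg in CMC gave Mrc1 levels of 8.42, 8.97 and 9.37 in 9 treated hearts and 7.46, 7.91 and 8.65 in 27 control hearts. The groups overlapped, and the change was 0.95 ± 0.12 (adjusted p = 3.09e-07). Lyve1 (1.03), Cd163 (0.90) and Gpnmb (0.59) were called too, with 1.5% of all genes called higher. Within the 1 hybridization batch that held both groups (1 treated and 3 control rats) these changes were 0.61 in Mrc1, 0.64 in Lyve1, 0.91 in Cd163 and 0.02 in Gpnmb. Gabapentin, an anticonvulsant, at 2500 mg/kg was followed by called rises in Mrc1 (1.05, adjusted p = 8.7e-04), Lyve1 (1.02, adjusted p = 0.00266) and Cd163 (0.80 ± 0.10, adjusted p = 2.59e-05), with 0.858% of all genes called higher. Acrolein, a reactive aldehyde, at 20 mg/kg in water was followed by called rises in Gpnmb, Lyve1 (0.96, adjusted p = 2.5e-04), Cd163 (0.92, adjusted p = 2.52e-04) and Mrc1 (0.63, adjusted p = 0.00334), with 0.978% of all genes called higher. Lyve1 was the sole called member after losartan (0.81), candesartan (0.76) and clofibric acid (0.71), where 57, 42 and 32 of the 14217 genes were called higher. In the candesartan hearts the Lyve1 change was 0.33 with controls of the same in-life study.

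Blood and stromal markers moved in several of these profiles too. Red blood cell genes were called lower for 3 of 3 after cyclophosphamide (median -3.18, mean level 5.69 to 7.71 in treated hearts against 9.38 to 10.81 in control hearts), and for 3 of 3 after chlorobenzene (median -1.28) and 2 of 3 after tacrolimus (median -1.14). MHC class II genes were called lower for 3 of 5 after cyclophosphamide (median -0.93) and after fludrocortisone acetate (median -1.12). Fibroblast genes were called lower for 5 of 6 after fludrocortisone acetate (median -0.86) and 4 of 6 after chlorobenzene (median -0.74). Neutrophil genes were called higher for 2 of 5 after acrolein (mean level 5.95 to 8.20 in treated hearts and 5.25 to 6.35 in control hearts) and after gabapentin (6.06 to 6.52 in treated hearts and 5.14 to 5.85 in control hearts). Their part in the changes of the members was not tested.

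Lyve1 was also read against the lymphatic endothelium. It was called higher in 11 of the 14 profiles described in full, which are the 12 with 3 or more called members and both isoprenaline profiles. In those 11, the lymphatic transcription factor Prox1 was never called higher and was called lower in 2 (-0.83 to 0.04). The lymphatic receptor Flt4 was never called (-0.17 to 0.02). Podoplanin (Pdpn) was called higher once, after sulindac (0.99). The lymphatic chemokine Ccl21 was called higher once, after tacrolimus (0.59), and lower after dexamethasone (-1.11), fluocinolone acetonide (-1.96) and acrolein (-0.59).

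**Figure D3:**
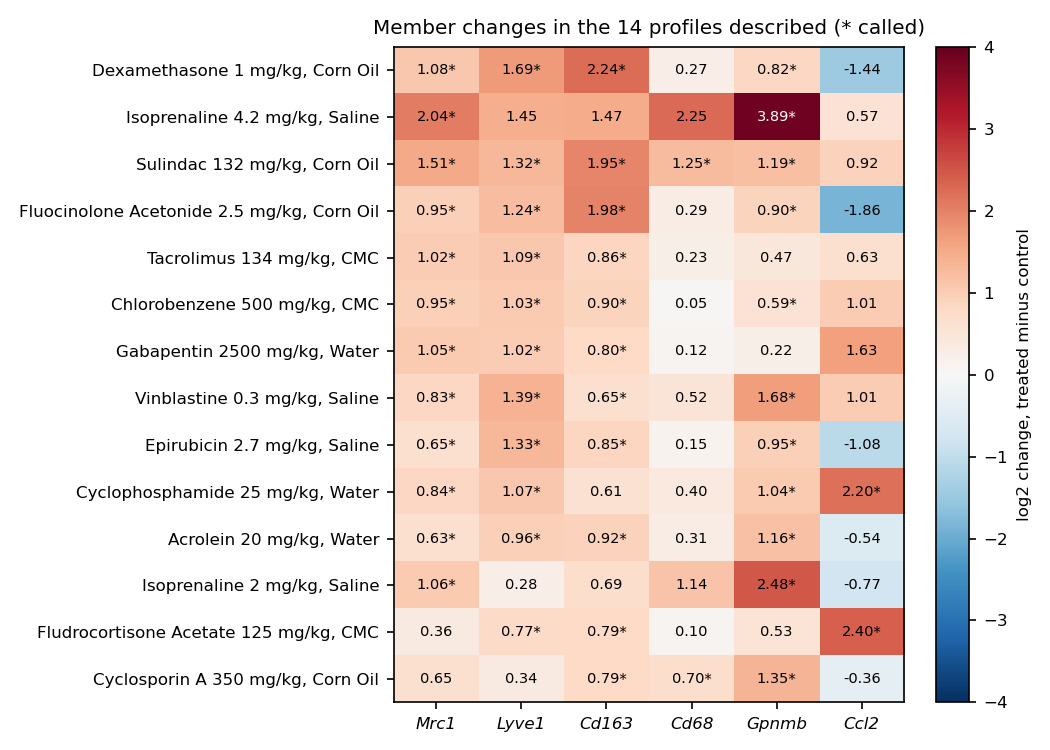
Log2 change, treated minus vehicle control hearts, of the 6 members in the 14 profiles described in full, ordered by the mean change of Mrc1, Lyve1 and Cd163, with * marking called changes. The scavenger receptors were called together after dexamethasone, fluocinolone acetonide, sulindac, tacrolimus, epirubicin, vinblastine, chlorobenzene, gabapentin and acrolein, and Gpnmb reached 3.89 after isoprenaline at 4.2 mg/kg.

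Gpnmb and Cd68, the markers of the phagolysosome, had their largest changes under the adrenergic agonist isoprenaline. Their promoter windows are shown because both held the AP-1 motif TGANTCA, which 7.33% of promoters hold. They are chr4:79340878-79341177 (plus strand) for Gpnmb and chr10:54882392-54882691 (minus strand) for Cd68, again from RefSeq on GRCr8, and capitals mark TGANTCA or GAGGAA on either strand.
Gpnmb: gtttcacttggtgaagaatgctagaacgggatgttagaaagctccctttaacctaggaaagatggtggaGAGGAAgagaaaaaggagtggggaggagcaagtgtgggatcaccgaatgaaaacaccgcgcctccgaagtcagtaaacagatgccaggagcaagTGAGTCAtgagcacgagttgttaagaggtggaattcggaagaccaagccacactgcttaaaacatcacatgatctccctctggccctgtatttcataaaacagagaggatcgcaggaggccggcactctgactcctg
Cd68: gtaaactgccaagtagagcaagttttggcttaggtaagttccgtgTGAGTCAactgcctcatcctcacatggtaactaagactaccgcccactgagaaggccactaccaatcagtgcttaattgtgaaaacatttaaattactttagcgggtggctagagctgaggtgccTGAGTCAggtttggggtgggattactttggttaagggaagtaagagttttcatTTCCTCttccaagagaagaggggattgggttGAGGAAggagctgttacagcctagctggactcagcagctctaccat
TGAGTCA lay at -87 in the Gpnmb window and at -205 and -80 in the Cd68 window. GAGGAA lay at -181 in the Gpnmb window, and at 5 and, on the reverse strand, -27 in the Cd68 window. These matches too describe letters only.

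Isoprenaline at 4.2 mg/kg was delivered by a subcutaneous mini-pump, and its control rats came from the same in-life study. Gpnmb was at 10.61, 11.84 and 12.32 at 3 d and 9.92 and 11.45 at 5 d in 5 treated hearts, against 6.87 and 7.21 at 3 d and 7.38 and 7.80 at 5 d in 4 control hearts. The change of 3.89 ± 0.43 (adjusted p = 0.00614) was the largest of any member in the 95 profiles. Mrc1 was at 9.56, 9.87 and 10.05 at 3 d and 9.37 and 10.00 at 5 d in treated hearts, and at 6.98 and 7.61 and then 8.17 and 8.29 in control hearts, with a change of 2.04 ± 0.24 (adjusted p = 0.00614). Only 0.148% of all genes were called higher in this small comparison. Cd68, at 8.37, 9.62 and 9.84 at 3 d and 7.95 and 8.91 at 5 d in treated hearts and 6.19, 6.93, 6.67 and 6.79 in control hearts, had a change of 2.25 ± 0.35 and missed the threshold (adjusted p = 0.014). Cd163 (1.47, adjusted p = 0.0143) and Lyve1 (1.45, adjusted p = 0.0323) missed it too. For each of these 5 members every treated heart was above every control heart. The share of all genes separated in this way, in 5 against 4 rats, was not counted. Both calls were lost in all 4 refits that left out 1 control rat, with Gpnmb at 3.64 to 4.10 and Mrc1 at 1.78 to 2.17.

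At 2 mg/kg by mini-pump, isoprenaline gave Gpnmb levels of 8.56, 9.44 and 12.24 in 8 treated hearts and 7.08, 7.42 and 8.15 in 9 control hearts, without overlap. The change was 2.48 ± 0.49 (adjusted p = 0.00503). Mrc1 rose by 1.06 ± 0.23 (adjusted p = 0.00876), and Cd68 was not called (1.14, adjusted p = 0.0272), with 1.05% of all genes called higher. Within the same hybridization batches (4 treated and 4 control rats) the changes were 1.57 in Gpnmb and 0.67 in Mrc1. Without 1 control rat the Gpnmb call was lost in 6 of 9 refits and the Mrc1 call in 8 of 9. Matrix genes that rise after heart injury moved alongside: Postn changed by 5.28 and Thbs4 by 3.78 at 4.2 mg/kg, and by 3.22 and 2.54 at 2 mg/kg. Norepinephrine at 1.75 mg/kg, set against the same 4 control rats as the 4.2 mg/kg dose, had no called member. Its 6 treated hearts lay above all 4 control hearts in Gpnmb (2.09, adjusted p = 0.0324), Mrc1 (1.58, adjusted p = 0.0144), Cd163 (1.33), Lyve1 (1.13) and Cd68 (1.04). How many of all genes were separated in this way was not counted here either. Dobutamine and L-phenylephrine had no called member, with Gpnmb at -0.03 and 0.03.

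**Figure D4:**
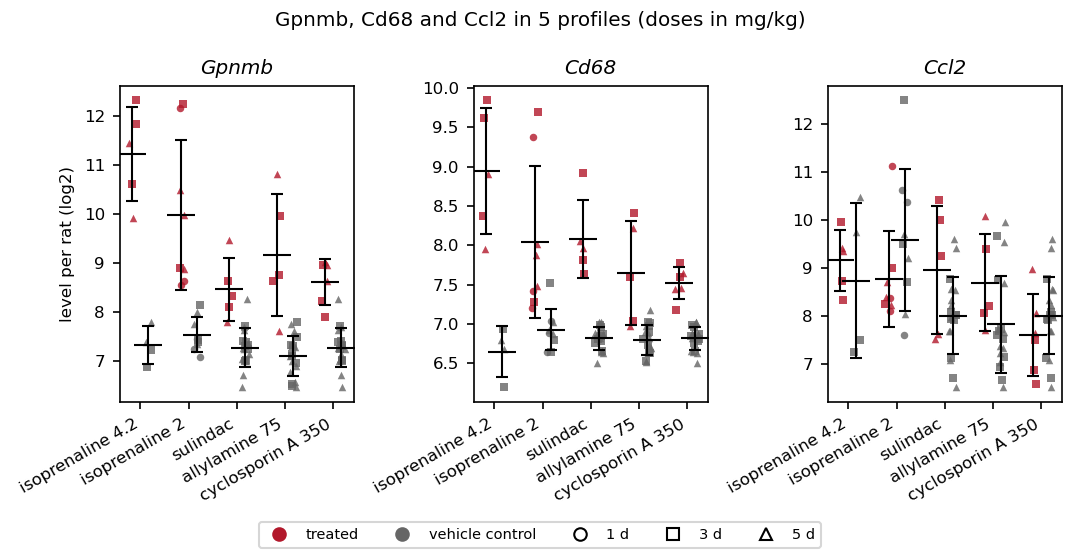
Log2 level of Gpnmb, Cd68 and Ccl2 in each rat given isoprenaline at 4.2 or 2 mg/kg, sulindac, allylamine at 75 mg/kg or cyclosporin A at 350 mg/kg (red, left) and in the matched vehicle control rats (grey, right), with marker shape for the duration and bars for the mean ± SD. Gpnmb did not overlap between treated and control hearts for either isoprenaline dose, Cd68 did not overlap for isoprenaline at 4.2 mg/kg, sulindac and cyclosporin A, and Ccl2 overlapped in every panel.

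Allylamine, which injures the vessel wall and heart muscle, at 75 mg/kg in water gave Gpnmb levels of 8.63, 8.76 and 9.95 at 3 d and 7.62 and 10.82 at 5 d, against 6.46, 7.10 and 7.79 in 19 control hearts. All but 1 treated heart lay above every control heart, and the change was 2.05 ± 0.31 (adjusted p = 1.71e-04). Cd68 was at 7.03, 7.60 and 8.41 at 3 d and 6.97 and 8.22 at 5 d in treated hearts and 6.52, 6.81 and 7.17 in control hearts (0.85 ± 0.16, adjusted p = 0.00194), with 0.584% of all genes called higher. At 40 mg/kg no member was called. Acrolein, to which allylamine is metabolized, gave Gpnmb levels of 7.59, 8.09 and 9.08 in 8 treated hearts and 6.46, 7.07 and 7.79 in 28 control hearts (1.16 ± 0.15, adjusted p = 9.58e-07), and 6 of the 8 treated hearts were above all control hearts.

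Cyclosporin A, the other calcineurin inhibitor, at 350 mg/kg in corn oil had Cd68 levels that did not overlap between the groups, at 7.18, 7.53 and 7.78 in 6 treated hearts and 6.50, 6.84 and 7.03 in 19 control hearts (0.70 ± 0.08, adjusted p = 5.33e-07). Gpnmb was at 7.89, 8.79 and 9.02 in cyclosporin A hearts and 6.46, 7.25 and 8.26 in control hearts (1.35 ± 0.18, adjusted p = 8.42e-06), and Cd163 rose by 0.79 (adjusted p = 0.0038), with 1.06% of all genes called higher. Mrc1 and Lyve1 were not called, and of 27 other macrophage genes 11 were called higher. All 3 red blood cell genes were called lower (Hbb -1.46, Alas2 -2.78, Slc4a1 -1.75), with a mean level of 6.79 to 9.05 in cyclosporin A hearts and 9.55 to 11.19 in control hearts. MHC class II genes were called lower for 2 of 5 (8.46 to 8.99 in cyclosporin A hearts and 8.71 to 9.88 in control hearts), and neutrophil genes higher for 2 of 5 (5.55 to 6.54 in cyclosporin A hearts and 5.18 to 6.29 in control hearts). The endothelial genes Cd93 (-1.03) and Emcn (-0.59) were called lower. The part of these markers in the changes was not tested. At 300 mg/kg in another vehicle no member was called, with Gpnmb at 0.98 and Cd163 at 0.83. The fibrate bezafibrate at 617 mg/kg had a called rise in Gpnmb alone, at 7.95, 8.03 and 9.57 in 6 treated hearts and 6.78, 7.09 and 7.52 in 10 control hearts, without overlap (1.38 ± 0.23, adjusted p = 0.00382). Of the 14217 genes, 65 were called higher after bezafibrate. Gpnmb was also called after dexfenfluramine (1.09), risperidone (0.90), paroxetine (0.87) and terfenadine (0.61), where 24, 31, 76 and 124 genes were called higher.

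Ccl2 differed from the others in 3 respects. It held both called decreases (a number close to the share over all genes), its groups overlapped in all 95 profiles, and its repeat arrays differed widely. In the 22 rats hybridized more than once, the difference between arrays had an SD of 1.45 for Ccl2 (-2.86 to 2.97), larger than for 99.9% of genes, and in 11 rats it was at least 1. The corresponding SD was 0.41 for Mrc1, 0.39 for Lyve1, 0.36 for Cd163, 0.29 for Gpnmb and 0.26 for Cd68, against a median of 0.31 over all genes. For Ccl2 the SD of a single array within a rat was 1.01, as large as the SD between rats of 1 group, also 1.01. The first array of each rat was the earlier RNA extraction, so the SD within a rat may include differences between extractions and campaigns.

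Ccl2 was called higher after fludrocortisone acetate, at 8.09, 9.50 and 11.65 in 9 treated hearts and 5.43, 6.93 and 9.41 in 27 control hearts (2.40 ± 0.32, adjusted p = 1.56e-06). It was also called after cyclophosphamide, at 8.87, 9.92 and 11.52 in 6 treated hearts and 6.53, 7.61 and 9.95 in 19 control hearts (2.20 ± 0.43, adjusted p = 0.0014). With 3 cyclophosphamide rats and the 1 control rat of their own study the change was -0.25. Sulindac hearts had Ccl2 at 9.24, 10.00 and 10.42 at 3 d, a called change of 2.07 at that duration (adjusted p = 0.0067, with 2.11% of all genes called higher), and at 7.53 and 7.61 at 5 d, an uncalled change of -0.57. The chemokines Cxcl1 (3.12) and Cxcl2 (2.00), which draw neutrophils, rose in the same sulindac profile.

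Ccl2 was called lower after atenolol and guanethidine. The beta-blocker atenolol at 1000 mg/kg gave 5.81, 6.39 and 6.89 in 8 treated hearts and 6.35, 7.41 and 8.74 in 20 control hearts (-1.12 ± 0.25, adjusted p = 0.00407). Of all genes 2.4% were called lower in this profile. By single duration, 2014 genes were called lower and 345 higher at 3 d, and none at 1 or 5 d. Ccl2 was called at 3 d too and not at 1 d (-0.62) or 5 d (-1.25), and the part of the broad shift at 3 d in the Ccl2 decrease was not tested. Guanethidine, which depletes norepinephrine from nerve endings, at 132 mg/kg gave 5.99, 6.40 and 7.10 in 6 treated hearts and 6.35, 7.79 and 8.74 in 11 control hearts (-1.22 ± 0.30, adjusted p = 0.00972), with 1.17% of all genes called lower. The guanethidine rats shared no hybridization batch with their control rats, so batch and compound cannot be told apart there. With control rats of every campaign the changes were -0.75 after atenolol and -0.69 after guanethidine, and neither was called. Changes of similar or larger size under glucocorticoids missed the threshold over all durations: -1.86 ± 0.57 after fluocinolone acetonide (adjusted p = 0.0283) and -1.44 ± 0.43 after dexamethasone (adjusted p = 0.0151). At 5 d alone dexamethasone hearts, at 5.06, 5.64 and 6.18, lay below all 11 control hearts (6.51, 8.23 and 9.60), a called decrease of -2.52 (adjusted p = 0.0015), with 2.95% of all genes called lower at that duration.

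By single duration, 74 of 1212 member tests in 202 profile-durations were called higher, against 0.277% of the tests of all genes, and 3 lower, against 0.307%. The lower calls were Ccl2 after atenolol at 3 d (-1.60), where 14.2% of all genes were called lower, Ccl2 after dexamethasone at 5 d, and Mrc1 after chlorpropamide at 5 d (-0.98), where 3.02% were. No difference between durations passed the threshold in 462 tests of a member in 77 profiles with at least 2 durations. Of the same tests over all genes 0.117% passed that threshold. Before adjustment, 79 of the 462 had a limma p below 0.05, and the share of all genes at that level was not counted. Cd163 after hydrocortisone was called at 1 d (1.74) and 3 d (1.64) and not at 5 d (0.73), but that difference was not past the threshold. Doses of 1 compound could be compared directly in 3 pairs, with no called member in 18 tests, and 0.0469% of the tests of all genes were called. For imatinib at 150 against 15 mg/kg (9 rats each) the difference was -0.50 for Mrc1 (95% interval -0.76 to -0.24, adjusted p = 0.0735) and -0.32 for Cd163 (-0.48 to -0.17, adjusted p = 0.0422).

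The vehicle control hearts themselves varied. Over 217 control rats the level was 8.03 ± 0.47 (mean ± SD) for Mrc1, 8.67 ± 0.55 for Lyve1, 5.72 ± 0.49 for Cd163, 7.22 ± 0.37 for Gpnmb and 7.89 ± 1.22 for Ccl2, and Cd68 ranged from 6.19 to 7.52. For the extraction campaign, limma's F test gave adjusted p = 3.89e-08 for Mrc1, 5.39e-08 for Lyve1, 7.01e-11 for Cd163, 2.97e-04 for Ccl2 and 0.00917 for Gpnmb, with 0.201 for Cd68, while 50.4% of all genes passed. With vehicle, route and duration in the same fit, Lyve1 was 1.01 higher in the fifth campaign than in the first, Cd163 0.96, Mrc1 0.85 and Ccl2 1.46. Vehicle and route passed for Ccl2 (adjusted p = 2.53e-04), Gpnmb (5.09e-04) and Cd163 (0.00344), against 6.46% of all genes. Duration passed for none of the 6, against 1.64% of all genes. Gpnmb was highest in the 3 control rats given saline intraperitoneally, at 8.23 ± 0.41 (SD).

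Rats of the same group also differed together. Over 822 rats, the deviations of Mrc1 from the group mean followed those of Lyve1 with r = 0.82 (rho = 0.80), and those of Cd163 with r = 0.76 (rho = 0.73). The correlation of Mrc1 with Lyve1 was 0.81 in 610 treated rats, 0.85 in 212 control rats and 0.67 to 0.89 within the 5 campaigns. Without the pair of rats farthest from the median it was still 0.82. Cd68 with Gpnmb reached r = 0.58 (rho = 0.44), and Mrc1 with Ccl2 r = 0.18 (rho = 0.19). For Mrc1 with Ccl2, r was 0.10 in the treated rats and 0.40 in the control rats. These values share arrays, and with them array quality and the makeup of the piece of heart taken, so they are given as a description of 15 pairs. Over all 822 rats the permutation p was 1e-05 for each of these 4 pairs, the smallest that 100000 permutations can give, and 1e-05 after Benjamini-Hochberg adjustment over the 15. The genes most like each member by r were Lyve1, Ms4a6bl1 (0.79) and Clec10a (0.76) for Mrc1, Lyz2 (0.69), Fcer1g and Fcgr1a for Cd68, S100a4 (0.66), Ms4a6bl1 and Lgals3 for Gpnmb, and Ccl7 (0.87), Pvr (0.72) and Tnfaip6 (0.72) for Ccl2. Mrc1 was the gene most like Lyve1 and most like Cd163, and each of these had the other next.

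**Figure D5:**
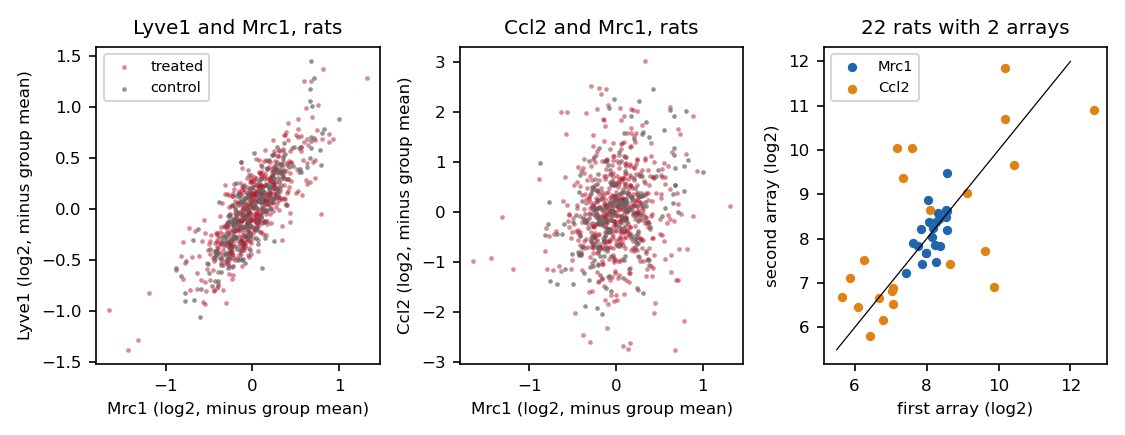
Deviation of each rat from its group mean on the log2 scale, Lyve1 and then Ccl2 against Mrc1, and, in the last panel, the first against the second array of the 22 rats hybridized more than once, with the identity line. Lyve1 followed Mrc1 (r = 0.82) and Ccl2 did so less (r = 0.18, with 0.40 in control rats and 0.10 in treated rats). Repeat arrays of Ccl2 spread by an SD of 1.45 against 0.41 for Mrc1.

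Of the 27 other macrophage genes, 20 were called higher in at least 1 of the 14 described profiles and 4 were called lower in at least 1. The 20 are the same genes that were called higher after sulindac alone. In a single one of these profiles, from 0.148% (isoprenaline at 4.2 mg/kg) to 3.5% (sulindac) of all genes were called higher. The share of all genes called in at least 1 of the 14 was not counted, so the counts here are a description. The complement gene C1qb was called higher in 8, C1qa and C1qc in 7 each, F13a1 in 7 and Cd14 in 7. The folate receptor gene Folr2 was called higher in 3. Aif1 was called higher in 3 and lower in 2, the leukocyte genes Ptprc and Cd53 higher in 2 and lower in 2 each, and Ly86 lower in 1. Of the lysosome and phagocyte lipid genes, the galactose-binding lectin Lgals3 was called higher in 10 (0.61 to 1.80). Cd93, a receptor of endothelial and myeloid cells, was called lower in 8 (-2.39 to -0.89). Neutrophil S100a8 was called higher in 6. Over all 95 profiles, 104 of 2565 tests of the 27 other macrophage genes were called higher (4.05%) and 25 lower (0.975%). The 25 other lysosome and phagocyte lipid genes gave 37 higher calls in 2375 tests (1.56%). A list of 19 genes, of chemokines and the cytokines Il6, Il1b, Tnf and Csf3, gave 30 higher (1.66%) and 23 lower (1.27%) in 1805.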

How the data were processed

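Heart RNA of each rat was hybridized to a whole-genome rat array. The submitters' processing notes name RMA, with no version, and the deposited table holds log2 expression values made by the authors for 31099 probe sets. Probe sets were named through the platform's probe-to-gene table (20826 with 1 symbol, 436 with several, 9780 with none), which gave 14217 genes. Array data carry no read depth, so precision was set by the number of rats. Where a rat had a repeat array, the earlier extraction was used in the fits, and the repeat only to compare arrays of the same rat.

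Each profile was fitted with limma 3.58.1 (lmFit, eBayes) on treated rats and matched control rats, with duration as a stratum, and p-values were adjusted over all genes by the Benjamini-Hochberg method. Nothing in the labels numbers replicates. The p-values measure the spread between rats. The 12 control rats with conflicting labels and 19 treated rats without a matched control were left out. Each member was named in up to 5 profiles of its largest called rises and falls, and every profile with 3 or more called members was described. The alternatives changed the controls, probe sets, filter, normalization, test and blocks, and left out rats. The members and lists were chosen with earlier results of these data known.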

Additional observations from a re-analysis of the deposited data

Results flagged for a closer look

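In control groups of 4 to 10 rats, the highest or lowest rat was compared with its nearest neighbour over the range of the group (Dixon's test). Of 96 sets of a member in a control group, 12 had a rat standing off from the others, and chance gives about 1 in 20 groups. The CMC gavage controls at 3 d of campaign 3 (n = 6) had 1 rat, whose array stood apart from all arrays, at 8.70 for Mrc1, 10.25 for Lyve1 and 6.57 for Cd163, against 8.08, 8.61 and 5.63 in the nearest rats. The water gavage controls at 3 d of campaign 3 (n = 8) likewise had an array standing apart at 8.59 for Mrc1, 9.70 for Lyve1 and 7.77 for Gpnmb, against 7.99, 8.77 and 7.38, and another rat was low in Ccl2 at 5.80, against 6.98. In the water gavage controls at 1 d of campaign 1 (n = 9), the lowest rat had 7.36 for Mrc1 and 7.50 for Lyve1, against 7.84 and 8.57 in the nearest rats, and the highest rat had 7.27 for Cd68, against 6.83. The corn oil gavage controls at 1 d of campaign 1 (n = 7) held a rat at 9.36 for Ccl2, against 7.51. The water gavage controls at 5 d of campaign 3 (n = 9) held a rat at 5.60 for Cd163, against 5.38.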

How the results depend on the processing

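Of the 69 calls, 68 were made again with the mean of all probe sets of a gene, 66 after a new quantile normalization, 64 without arrays standing apart, 69 with the controls of conflicting labels used by title, 63 with the hybridization batch as a random block, 56 with controls of every campaign and 54 with the methods' t-test. In the 78 profiles that could be fitted with the in-life study as a random block, 50 of 65 were. With controls of the same in-life study, 6 of 25 were, and 2 turned direction (Ccl2 after cyclophosphamide, -0.25, and Cd163 after vinblastine, -0.10). That setting called Mrc1 higher in 2 profiles, Cd163 in 1, Gpnmb in 3, and Lyve1, Cd68 and Ccl2 in 0, and Ccl2 lower in 0. It had 51 profiles and fewer control rats. With the study as a block, Mrc1 was called higher in 7 profiles and Ccl2 in 1. With controls of every campaign, Cd68 was called higher in 6 profiles and Ccl2 in 7, and Mrc1, Cd163 and Ccl2 lower in 1 each. Ccl2 was called lower in 1 profile, not both, with the t-test, mean probe sets, quantile normalization, batch block or arrays standing apart left out. In control hearts the study block moved the adjusted p of vehicle and route for Cd163 to 0.0432, and of campaign for Gpnmb to 0.0507 and for Ccl2 to 0.0128. The causes were not tested. Among the upper 60% of genes by mean level Cd163 was not tested, and all 56 other calls were made again.

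In the 14 profiles described in full, leaving out each treated rat kept 35 of 49 calls in every refit and turned none. The other 14 were lost at least once, among them the Mrc1 and Cd163 calls of vinblastine and the calls of both isoprenaline doses. Leaving out each control rat, an alternative chosen after seeing the data, was run for fluocinolone acetonide and both isoprenaline profiles only. It kept the fluocinolone acetonide calls, and each isoprenaline call was lost at least once. Within hybridization batches these 49 calls all kept their direction, 14 passed the threshold, and the median ratio to the reported change was 0.94. Some rest on few rats: chlorobenzene had 1 treated and 3 control rats, with Gpnmb at 0.02. No paired analysis was possible because the labels carry no replicate numbers.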

Other observations

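Profiles without matched control rats give levels only. Groups of 9 rats were given 2'-Beta-Fluoro-2',3'-Deoxyadenosine at 7.5 mg/kg and daunorubicin at 2 mg/kg by gavage. In the first, the lowest, median and highest rat were at 8.13, 8.57 and 9.13 for Mrc1, 8.92, 9.24 and 9.96 for Lyve1, and 7.42, 9.64 and 12.31 for Ccl2. In the daunorubicin hearts they were at 6.81, 8.96 and 9.05 for Mrc1, 7.86, 9.45 and 10.28 for Lyve1, and 6.90, 8.95 and 10.56 for Ccl2. Over all 95 profiles the MHC class II genes were called lower in 50 of 475 tests (10.5%) and higher in none, and red blood cell genes lower in 52 of 285 tests (18.2%) and higher in 1.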
